A study of Mus musculus with 34 samples.

Results

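The 12 libraries of floxed control mice, out of 34 in the series, were taken from the labels alone and described here over all genes, as a record of normal mixed hindlimb muscle and of the differences among 4 mouse colonies. The groups are IRlox (n = 3), from the colony with floxed Insr, the insulin receptor gene; IGFRlox (n = 4), with floxed Igf1r, the IGF-1 receptor gene; IRIGFRlox (n = 3), with both; and Qlox (n = 2), with both receptors and Foxo1, Foxo3 and Foxo4, the FoxO transcription factor genes. The other 22 libraries come from the knockout littermates of these colonies, named MIRKO, MIGF1RKO, MIGIRKO and QKO, in which the floxed genes are deleted in muscle. Acta1-Cre, a recombinase driven by the skeletal muscle actin promoter, is the driver named for MIRKO, MIGIRKO and QKO. All mice were male and of mixed C57Blk6, C57Blk6J and 129 background, and each line was bred as its own colony. For Nnt, a mitochondrial gene that is mutated in some C57 substrains, the submitters give IRIGFRlox as heterozygous and IRlox and Qlox as a mixture of homozygous and heterozygous mice. Quadriceps and gastrocnemius were powdered together, and total RNA was made into directional libraries. Ages are not given in the sources used here, and the number after a group name is only a name. Unless another fit is named, the p-values rest on the spread within groups, estimated from all 34 libraries, the 22 knockout libraries included.

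A floxed allele carries loxP sites around an exon and is meant to work normally until Cre removes that exon, so floxed littermates serve as wild-type-like controls. Mouse quadriceps and gastrocnemius are built mostly of fast, glycolytic fibres, whose contractile proteins are the most abundant products of the cell. Colonies bred apart on a mixed background can differ in the strain origin of any stretch of the genome, and chromosome near a targeted gene is often inherited with it.

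These start regions are shown because they belong to 3 of the most abundant transcripts of these libraries: skeletal actin, the fast myosin and the fast calcium pump. They are the 250 bases before the RefSeq start (GRCm38.p6) of the 3 nuclear genes with the highest level per length that have an entry, out of 4 looked up. Capitals mark matches, on either strand, to TATAAA, to the CArG box bound by serum response factor and to the MEF2 box.
Acta1 (chr8:123894776-123895025, minus strand): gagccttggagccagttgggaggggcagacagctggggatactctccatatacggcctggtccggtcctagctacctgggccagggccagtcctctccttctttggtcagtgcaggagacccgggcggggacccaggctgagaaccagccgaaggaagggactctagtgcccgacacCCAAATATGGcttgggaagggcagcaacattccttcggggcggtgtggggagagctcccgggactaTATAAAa
Myh4 (chr11:67237562-67237811, plus strand): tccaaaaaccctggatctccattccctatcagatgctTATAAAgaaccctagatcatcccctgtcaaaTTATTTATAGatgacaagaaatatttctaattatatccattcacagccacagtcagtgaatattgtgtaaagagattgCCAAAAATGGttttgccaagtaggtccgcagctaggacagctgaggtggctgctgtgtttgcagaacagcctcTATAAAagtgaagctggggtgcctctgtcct
Atp2a1 (chr7:126463074-126463323, minus strand): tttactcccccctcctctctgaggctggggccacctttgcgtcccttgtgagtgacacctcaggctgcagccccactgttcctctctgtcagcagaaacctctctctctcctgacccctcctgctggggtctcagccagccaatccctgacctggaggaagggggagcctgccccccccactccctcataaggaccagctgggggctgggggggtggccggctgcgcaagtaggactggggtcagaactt
In the Acta1 window the TATAAA match began 7 bases and the CArG match 73 bases before the start. In the Myh4 window TATAAA matched at 213, 179 and 31 bases, the CArG box at 104 and the MEF2 box at 182 bases before the start, which lies 217 bases upstream of the annotated start in GENCODE. The Atp2a1 window held none of the 3. CANNTG, the E-box core, is not capitalised and occurred in all 3 windows. Of 32817 windows of this length before annotated starts, 12.4% held TATAAA, 1.47% the CArG box, 2.92% the MEF2 box and 66.2% CANNTG. A match is a description of letters and not a site.

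Total counts were 3439749 to 7581198 in the 12 libraries. Among the 66 pairs none was a duplicate by its counts. Between 13257 and 13726 genes reached a level of 1 TPM, a count scaled by gene length and library depth, in a library. The sample titles number the libraries in 6 runs of consecutive numbers. IRlox came from runs 1 to 3, Qlox from runs 4 and 5, and IGFRlox and IRIGFRlox from both ends. Y-linked genes were counted in every library, and no library held more than 0.551 CPM (counts scaled to library depth) of Xist. Ribosomal RNA other than mitochondrial made up 0.0377% (IRlox 3) to 2.26% (IRIGFRlox 1) of counts. Mitochondrial ribosomal RNAs made up 0.278% (IGFRlox 2) to 0.719% (IRIGFRlox 3). In the knockout groups the libraries labelled MIRKO 4 and MIGIRKO 6 carried each other's colony levels at some of the genes below, and MIGIRKO 5 and QKO 5 stood apart from their groups at others. The knockout libraries enter the fit, so counts are also given without MIRKO 4 and MIGIRKO 6.

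The floxed genes themselves were expressed in all 4 colonies, and none was called different among them (edgeR's quasi-likelihood test, Benjamini-Hochberg adjustment over 13646 genes). Insr was 172, 171 and 146 CPM in IRlox, 175, 255, 233 and 196 in IGFRlox, 171, 159 and 191 in IRIGFRlox and 163 and 141 in Qlox (adjusted p = 0.39). All 4 IGFRlox libraries, of the colony whose label names no floxed Insr, lay above IRlox and Qlox, and their range overlapped that of IRIGFRlox. Igf1r was low, at 12.5 to 20.4 CPM with a median of 16.8 (adjusted p = 0.93). Foxo1, which drives the fasting programme of muscle, was 35.3, 31.4 and 31.9 CPM in IRlox, 74, 69.7, 124 and 70.4 in IGFRlox, 81.1, 76.1 and 30.6 in IRIGFRlox and 132 and 148 in Qlox (adjusted p = 0.084). Both Qlox libraries lay above the other 10. Foxo3 ran from 57.5 to 103 CPM (adjusted p = 0.77) and Foxo4 from 106 to 213 (adjusted p = 0.33). Nnt was 99.6, 132 and 97.6 CPM in IRlox, 176, 121, 147 and 156 in IGFRlox, 32.2, 113 and 146 in IRIGFRlox and 49.9 and 141 in Qlox (adjusted p = 0.84), and the range inside IRIGFRlox spanned most of the range over all 12.

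Contractile and calcium-handling genes of fast fibres dominated the counts. Myh4, the myosin heavy chain of type 2B fibres, took 6.19% ± 0.589 (SD, n = 12) of all counts, with a lowest library of 5.01%, a median of 6.3% and a highest of 6.91%. Atp2a1, the fast sarcoplasmic calcium pump, followed at 3.02%. Acta1, skeletal actin, took 2.38% and ran from 1.22% in IGFRlox 2 to 3.19%. The 4 next were Ttn, the titin spring, at 1.97%, Tnnt3, fast troponin T, at 1.64%, Aldoa, an aldolase of glycolysis, at 1.42% and Tpm1, tropomyosin, at 1.32%. The 3 most counted genes together held 11.6% ± 0.963, the first 20 held 29.4% ± 1.51 and the first 100 held 46.1% ± 1.62. Between 121 and 188 genes gave 50% of a library's counts, and 3582 to 4051 gave 90%. Protein-coding genes took 98.1% ± 0.682 of counts. A few abundant transcripts thus filled much of each library.

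**Figure D1:**
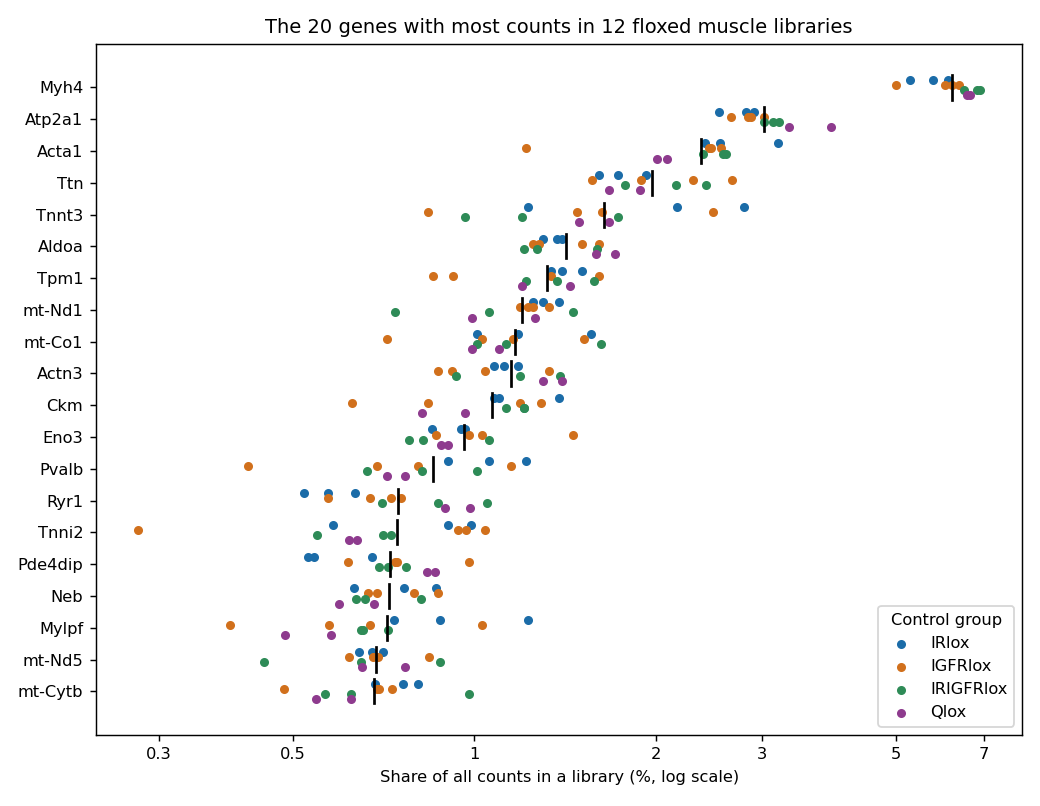
Percent of all counts (log axis) for the 20 genes with the most counts, 1 dot per floxed library coloured by control group, black line the mean of 12. Myh4 lies highest at 6.19%, and Tnni2 and Acta1 each show a single IGFRlox library far below the rest.

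Levels of different genes can be compared only per length, as TPM. On that scale Acta1 came first at 49400 ± 8860 TPM (SD, n = 12), with a lowest library of 26500, a median of 50400 and a highest of 63900. The mitochondrial genome transcript mt-Nd1 had a median of 41100 TPM (25100 to 47800), above the Myh4 median of 33400. Another, mt-Co1, had a median of 23100 TPM (15500 to 33300). Myh4 reached a mean of 32900 ± 3510 TPM and Tnnt3 32900 ± 11100, and Atp2a1 stood at 27900 ± 3940. Pvalb, the calcium buffer parvalbumin of fast fibres, stood at a mean of 26000 TPM, and Mylpf, the fast regulatory light chain, at 21400. Long Ttn fell from the fourth place by counts to 541 TPM. Fast troponin genes spread more widely between libraries than Myh4. Tnnt3 was 23500, 29900 and 12500 CPM in IRlox, 27800, 16300, 9050 and 17900 in IGFRlox, 11200, 19700 and 13600 in IRIGFRlox and 18900 and 16200 in Qlox. Tnni2, fast troponin I, was 9800, 10600 and 5920, then 10800, 10400, 2990 and 11400, then 6350, 8330 and 7970, and 7200 and 6770 CPM in the same order. IGFRlox 3 was lowest for both genes, while its Myh4 level of 65100 CPM lay inside the range of the others.

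Among the 4 adult myosin heavy chains, Myh4 made up 91.8% ± 1.69 of their summed TPM (SD, n = 12; 89% to 94.3%). Myh1, the type 2X chain, made up 5.65% ± 1.23, Myh2, the type 2A chain, 2.18% ± 0.423, and Myh7, the slow type 1 chain, 0.398% ± 0.171. The mean Myh4 share was 90.3% in IRlox, 91.9% in IGFRlox, 92% in IRIGFRlox and 93.4% in Qlox. Both Qlox libraries (92.5% and 94.3%) lay just above the highest IRlox library (92.4%), while IGFRlox and IRIGFRlox overlapped both. The Myh1 share was 3.79% and 4.54% in Qlox, below the 5.31% to 7.67% of IRlox and the 5.24% to 6.07% of IGFRlox. The Myh7 share was 0.254% and 0.327% in Qlox and 0.386% to 0.697% in IRlox. None of the 4 genes was called among the colonies. Myh7 was 538, 368 and 603 CPM in IRlox, 281, 171, 344 and 549 in IGFRlox, 272, 873 and 426 in IRIGFRlox and 289 and 363 in Qlox. Tnni1, slow troponin I, reached 50.5 CPM in the same IRIGFRlox 2 library and 9.51 in IGFRlox 2. Of 13 slow fibre genes, 0 were called, and their share ran from 0.0619% in IGFRlox 2 to 0.195% in IRIGFRlox 2. The embryonic chain Myh3 and the neonatal chain Myh8 were near the bottom, at 3.44 ± 0.726 and 3.94 ± 0.859 TPM.

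**Figure D2:**
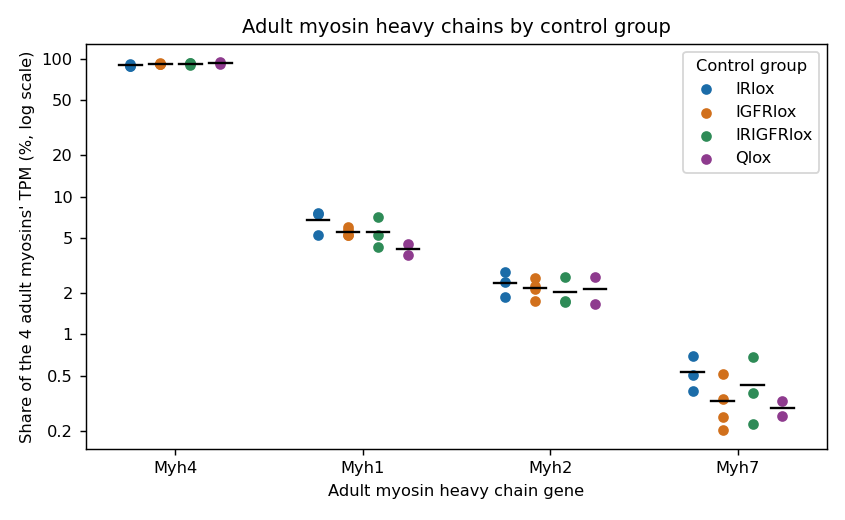
Share of the summed TPM of the 4 adult myosin heavy chains (percent, log axis) in each floxed library, by control group, black lines the group means. Myh4 holds between 89% and 94.3% in every library. Qlox (n = 2) and IRlox (n = 3) do not overlap for Myh1, Myh7 and, barely, Myh4 (92.5% against 92.4%), but do for Myh2. None of the 4 genes was called.

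By share of counts, energy metabolism came next. Per length the order differed. The mRNAs of the mitochondrial genome took 13.4% of TPM. That was below the fast fibre list (16%) and above the thin filament, titin, nebulin and Z disc list (7.88%). The 22 glycolysis and glycogen genes took 5.13% of counts (4.69% to 5.98%), led by Aldoa and by Eno3, the muscle enolase, at 17700 TPM. The 13 mRNAs of the mitochondrial genome took 4.81% ± 0.788. Their lowest (3.54%, IRIGFRlox 1) and highest (6.45%, IRIGFRlox 3) libraries belonged to the same colony. Nuclear genes of complex I took 0.515% ± 0.0824 and those of complexes II to V 1.3%, beside 1.01% ± 0.0419 for the tricarboxylic acid cycle, the steadiest of these lists. Ckm, muscle creatine kinase, was 11700 ± 2120 TPM, and Mb, myoglobin, 2180 ± 456. Insulin and IGF signalling genes took 0.465%, and Slc2a4, the insulin-regulated glucose transporter GLUT4, was 913 ± 124 TPM with no called difference (adjusted p = 0.75).

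Other cell types were a small part of the RNA, and in bulk tissue fewer cells of a type and less RNA per cell cannot be told apart. Fibroblast and matrix markers took 0.468% of counts (0.228% in Qlox 1 to 0.721% in IRlox 1). Col1a1, a chain of type I collagen, was 2430, 1870 and 1570 CPM in IRlox, 2010, 649, 1370 and 982 in IGFRlox, 649, 1910 and 512 in IRIGFRlox and 403 and 1320 in Qlox. Endothelial markers were the most even of the cell type lists, at 0.0518% to 0.0708%. Adipocyte markers took 0.102%, tendon markers 0.0723%, smooth muscle and pericyte markers 0.0574%, Schwann cell markers 0.0375% and macrophage and leukocyte markers 0.0147%. Satellite cell markers, the muscle stem cell list with Pax7, took 0.00358%. Red blood cell markers ranged 8.97-fold between libraries. The labelled tissue was matched by its markers, with Acta1 and Myh4 among the most abundant transcripts, while Nppa, an atrial gene, was near 0. Krt5 and Krt14, keratins of skin, had 0 counts in all 12 libraries.

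**Figure D3:**
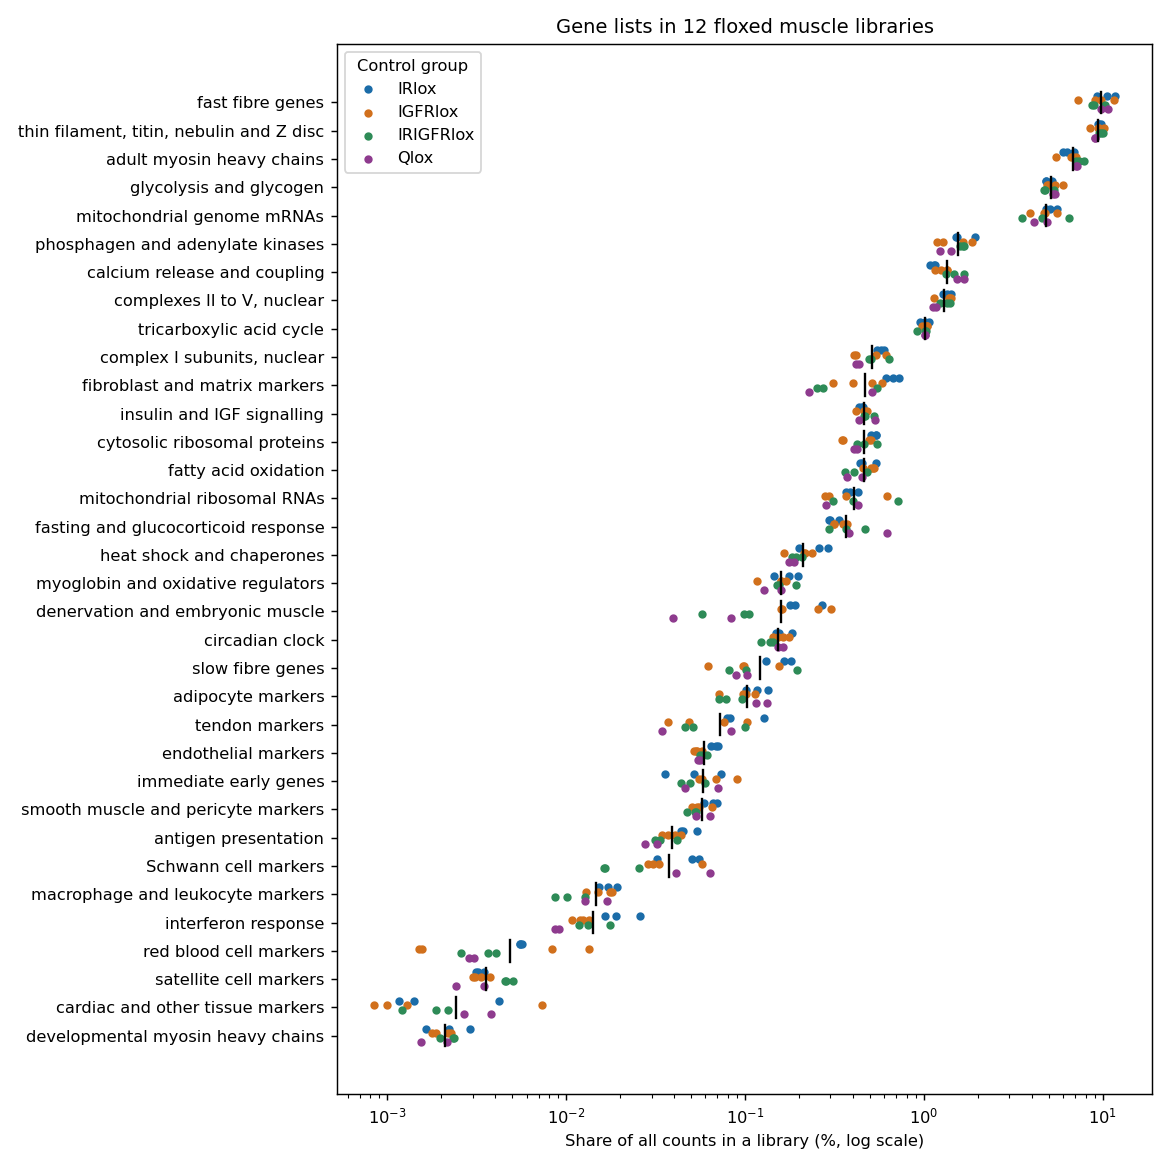
Percent of counts (log axis) taken by each of 34 gene lists, 1 dot per floxed library coloured by control group, black line the mean. The fast fibre and thin filament lists lie near 10% and most cell type lists below 0.1%, and the red blood cell, cardiac and other tissue, and denervation lists spread widest.

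The variation between mice was set beside that between colonies. The median gene had an SD of 0.31 on the log2 scale within a colony, and the SD of the 4 colony means was 0.20. Means of 2 to 4 mice also carry the spread between mice, so the 0.20 does not measure colony differences alone. Ldb3, a Z disc protein, was among the steadiest abundant genes at 1340 to 1740 CPM, with Saraf at 284 to 371, Mapkapk2 at 254 to 357 and Laptm4a at 286 to 337. Lars2, a mitochondrial leucyl-tRNA synthetase gene, ran from 221 CPM in IRlox 3 to 14200 in IRIGFRlox 1. The ribosomal RNA gene CT010467.1 was also lowest and highest in those libraries. The root mean square log2 difference between 2 libraries was 0.55 at the median of the 13 pairs within a colony, 0.59 for the 7 pairs from other colonies in the same run and 0.62 for the other 46 pairs, and the ranges overlapped. For 8 of 12 libraries the nearest library was of the same colony. The first principal component (20.5% of variance) was negative in all libraries of runs 1 to 3 and positive in all of runs 4 to 6. Since IRlox lay in the early and Qlox in the late runs, run and colony cannot be fully told apart for those groups.

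The comparison of the 4 colonies asks how far floxed controls bred apart can stand in for each other. Of 13646 genes tested, 36 (0.264%) differed in some way among the 4 groups at an adjusted p under 0.05. With each colony set against the mean of the other 3, 14 genes (0.103%) were called for IRlox, 20 (0.147%) for IGFRlox, 1 (0.00733%) for IRIGFRlox and 22 (0.161%) for Qlox. The contrasts share libraries and are not independent. At an unadjusted p under 0.05 the any-difference test held 1526 genes. The contrasts held 1663 for IRlox, 1207 for IGFRlox, 887 for IRIGFRlox and 987 for Qlox. Many 2-fold changes put into simulated data were missed by the any-difference test, so few calls do not show that the colonies are alike. The 5 tests named 59 genes in all, of which 47 are protein-coding and 12 are pseudogenes or non-coding, and 2, Vcp-rs and Map2k7, were called for more than 1 colony. None of the 59 was among the 20 genes with the most counts. The largest mean was 1127 CPM, for Sdha. Without MIRKO 4 and MIGIRKO 6 the any-difference test called 78 genes, and a fit to the 12 floxed libraries alone called 119. It fell to 15 without IRlox 2, 16 without IRlox 1, 17 without Qlox 2, 18 without IGFRlox 2 or Qlox 1 and 21 without IGFRlox 4. Few calls survived the loss of every single floxed library in turn: 6 of 36 in the any-difference test (Vcp-rs, Hgsnat, 2900097C17Rik, Musk, E030030I06Rik and Opn1mw), 1 of 14 for IRlox (Vcp-rs), 2 of 20 for IGFRlox (Hgsnat and 2900097C17Rik), 1 of 1 for IRIGFRlox and 2 of 22 for Qlox (E030030I06Rik and Opn1mw).

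Vcp-rs split the colonies into 2 pairs. It is a processed pseudogene related to Vcp, on the X chromosome (ENSMUSG00000083327, chromosome X, 104345829 to 104348234, GRCm38), and reads of Vcp could enter its count. It measured 71.1, 92.5 and 75.9 CPM in IRlox and 101, 72.1 and 67.6 in IRIGFRlox. In IGFRlox it was 5.1, 1.43, 2.5 and 3.12 and in Qlox 4.92 and 2.29 (adjusted p = 7.9e-06). The pairs did not overlap. The log2 difference from the other 3 colonies was 3.09 ± 0.43 (SE) for IRlox (adjusted p = 0.00079), 3.10 ± 0.42 for IRIGFRlox (adjusted p = 0.00065) and -3.25 ± 0.56 for IGFRlox (adjusted p = 0.0069). Knockout littermates showed the same split, at 51.3 to 75.1 CPM in MIRKO, 28.7 to 71.3 in 5 of 6 MIGIRKO libraries and 1.17 to 7.15 in MIGF1RKO and QKO. The exception was MIGIRKO 5, at 2.71.

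In IRlox, 7 genes were higher (0.0513% of those tested) and 7 lower (0.0513%). Sh3rf3, a scaffold and ubiquitin ligase of the JNK pathway (chromosome 10, 58813359 to 59138916), was 8.07, 9.91 and 10.8 CPM against 1.07 to 2.52 elsewhere, a log2 difference of 2.38 ± 0.39 (adjusted p = 0.0056). The MIRKO libraries were 6.71, 22.3, 2.35 and 2.67 CPM, so some lay above the other knockouts and some among them. The IRlox call for Sh3rf3 was lost without IRlox 3. Arnt2, a bHLH-PAS transcription factor, was 8.61, 9.36 and 9.3 CPM against 1.66 to 6.19 (adjusted p = 0.019). Also higher were Gas5, a host of small nucleolar RNAs, at 43.6, 41 and 25.6 CPM against 12.5 to 22.6 (adjusted p = 0.018) and Rps3a1, a ribosomal protein gene with many processed copies, at 111, 87.6 and 110 against 15.4 to 58.2 (adjusted p = 0.022). Both hold small nucleolar RNA genes whose reads may be counted with them. Ptn, the growth factor pleiotrophin, was higher too (4.96 to 6.19 CPM against 1.31 to 3.44, adjusted p = 0.027). So was Map3k7cl, with overlap (19.6 to 27.7 CPM against 7.22 to 21.4, adjusted p = 0.048), a call that held in 7 of 21 alternatives. MIRKO set against the other knockouts had log2 differences of 0.98 for Arnt2, 0.53 for Rps3a1 and 0.27 for Gas5. It had 0.1 for Ptn and -0.62 for Map3k7cl, and none of these was called.

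Among genes lower in IRlox, Sdha, the catalytic subunit of succinate dehydrogenase in complex II (chromosome 13, 74322254 to 74350280), stood out by its level. It was 813, 804 and 904 CPM against 979 to 1420 in the other 9 libraries, a log2 difference of -0.55 ± 0.11 (adjusted p = 0.044). No IRlox library overlapped the rest. MIRKO was lower than the mean of the other 3 knockout groups (log2 difference -0.48, adjusted p = 0.024), at 612 to 713 CPM, but MIGIRKO, at 593 to 801, lay as low. The call for Sdha held in 9 of 21 alternatives. Gm11814, a processed pseudogene, was 0.538, 0.551 and 1.49 CPM against 7.37 to 33.2 (adjusted p = 0.022). It was 0.694, 1.18 and 0.157 CPM in 3 MIRKO libraries and 10.4 in MIRKO 4, and 0.411 in MIGIRKO 6 against 10.3 to 16.9 in the other MIGIRKO. Ush1c, the scaffold protein harmonin, was 1.61, 2.75 and 1.99 CPM against 5.61 to 14.1 (adjusted p = 0.018), and again MIRKO 4, at 5.33, and MIGIRKO 6, at 1.64, lay on the other side from their groups. Nctc1, a non-coding transcript near Igf2 and H19, was 92.8 to 118 CPM against 134 to 280 (adjusted p = 0.017). Map2k7, a kinase that activates JNK, was 75.4 to 97.3 CPM against 116 to 208 (adjusted p = 0.022), and Tmco4 (adjusted p = 0.044) and Myo10, an unconventional myosin (adjusted p = 0.048), were lower too. MIRKO set against the other knockouts had log2 differences of -0.14 for Nctc1, -0.1 for Map2k7, 0.37 for Tmco4 and -0.05 for Myo10, none called.

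The IRlox count was sensitive to the libraries in the fit. It was 47 without MIRKO 4 and MIGIRKO 6, 127 (13 of the 14 among them) in the fit to the 12 floxed libraries, and 8 with the library runs as a block. Of the 14 calls 4 were kept with that block (Vcp-rs, Sh3rf3, Gas5 and Nctc1), and the adjusted p of the other 10 was 0.053 (Ush1c) to 0.091 (Map3k7cl). With library totals in place of TMM factors 14 of 17 called genes were higher, against 7 of 14 here. It fell to 2, 3 and 3 without IRlox 1, 2 and 3, to 8 without Qlox 1 and 9 without IGFRlox 3 or Qlox 2, and rose to 30 without IGFRlox 1.

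In IGFRlox, 15 genes were higher (0.11%) and 5 lower (0.0366%). Hgsnat, the lysosomal acetyltransferase of heparan sulphate breakdown (chromosome 8, 25944453 to 25976753), was not chosen by the naming rule and is named after its values were seen, for its low p. It was 38.4, 53.3, 43.8 and 45.1 CPM against 20.7 to 25.3 (log2 difference 0.99 ± 0.11, adjusted p = 5e-06). MIGF1RKO was 30.6 to 45.4 CPM against 19.6 to 28.1 in the other knockouts (adjusted p = 7.6e-05). The long non-coding RNA 2900097C17Rik (chromosome 2, 156388065 to 156392979) was 33.6, 21.2, 26.4 and 23.3 CPM against 5.04 to 11.5 (1.72 ± 0.24, adjusted p = 0.00015), and 21.1 to 29.4 in MIGF1RKO. Both calls held in 21 of 21 alternatives.

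Musk, the receptor kinase that gathers acetylcholine receptors at the neuromuscular junction, was also higher in IGFRlox, at 38.1, 46.6, 70.7 and 45.5 CPM against 13.3 to 34.2 (1.08 ± 0.19, adjusted p = 0.0066), a call lost without Qlox 1 or IGFRlox 3. Of the 11 denervation and embryonic muscle genes it alone was called. Chrna1, the acetylcholine receptor subunit that also rises on denervation, was 15.7 to 31.1 CPM over the 12 libraries with no called difference (adjusted p = 0.99). Actc1, cardiac actin, filled most of that list and was 323 to 3190 CPM. It was 1910, 1800 and 2610 CPM in IRlox, 2710, 1610, 1590 and 3190 in IGFRlox, 1010, 1070 and 529 in IRIGFRlox and 323 and 792 in Qlox, so the first pair of colonies lay above the second without a call (adjusted p = 0.21).

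Further genes higher in IGFRlox were less even. Slc25a30, a mitochondrial carrier, was 17.4, 59, 65.5 and 32.4 CPM against 9.96 to 27.6 (adjusted p = 0.0066). Cox7a2l, a factor in respiratory supercomplexes, was 105, 584, 145 and 243 CPM against 76.7 to 147 (adjusted p = 0.027), with IGFRlox 2 far above the rest and IGFRlox 1 and 3 inside the range of the other colonies. Iqgap2, a scaffold protein, was 34.8, 42.1, 32 and 43.8 CPM, against 6.46, 6.88 and 7.47 in IRlox, 5.58 and 7.79 in Qlox and 40.3, 15.9 and 29.7 in IRIGFRlox (adjusted p = 0.028). It was 51.3 to 63 in MIGF1RKO. Dpysl5 was 7.49 to 11.9 CPM against 1.88 to 7.57 (adjusted p = 0.035).

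On the lower side of IGFRlox, Gm7292, a long non-coding RNA, was 0 to 0.713 CPM against 1.33 to 6.41 (adjusted p = 0.026), and Tmem37, a calcium channel subunit-like protein, was 12.7 to 15 against 9.63 to 38.1 (adjusted p = 0.026). The IGFRlox count was 39 without MIRKO 4 and MIGIRKO 6, and 12, with 10 of the 20 among them, with the library runs as a block. The block ended the calls for Gm7292 (adjusted p = 0.051), Dpysl5 (0.068), Iqgap2 (0.073) and Cox7a2l (0.13). The count was 2 without Qlox 1, 4 without IGFRlox 2, 7 without IGFRlox 3, 9 without IRlox 1, 10 without Qlox 2, 12 without IGFRlox 4 and 93 without IGFRlox 1.

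IRIGFRlox had 1 called gene, Vcp-rs, against 887 genes at an unadjusted p under 0.05. Limma-voom called 0, DESeq2 2, the fit to the 12 floxed libraries 7, and the fits without MIRKO 4 and MIGIRKO 6 or without IRIGFRlox 3 called 3. Stab2, a scavenger receptor of sinusoidal endothelium, was called in the any-difference test alone and is named after its values were seen. It was 14.7 and 14 CPM in IRIGFRlox 1 and 2, 1.07 in IRIGFRlox 3 and at most 2.66 in the other 9 libraries, so 2 mice carried the call, which was lost with the library runs as a block (adjusted p = 0.15). MIGIRKO did not share it, at 0.507 to 4.49 CPM.

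In Qlox, with 2 libraries measured, 18 genes were higher (0.132%) and 4 lower (0.0293%). Several were close to absent elsewhere. E030030I06Rik (chromosome 10, 22113050 to 22149270) was 5.58 and 11.2 CPM against 0 to 0.623 (adjusted p = 7.1e-07), and Opn1mw, a cone opsin gene (chromosome X, 74127464 to 74150760), was 4.27 and 3.44 against 0 to 0.551 (adjusted p = 0.00017). Both are named after their values were seen, and both calls held in 21 of 21 alternatives. QKO was 1.45 to 3.54 CPM for the first and 2.63 to 7.33 for the second. Gm13394, a processed pseudogene inside Cfap77, was 55.8 and 42 CPM against 0 to 3.85 (adjusted p = 0.0063). In QKO it was 41.2 to 161 CPM except in QKO 5, at 1.45, and in MIGIRKO it was 33.8 in MIGIRKO 5 and at most 5.24 in the others. Gm10704 was 25.6 and 7.79 CPM against 0 to 0.826 (adjusted p = 0.00021). Gm6368 rested on a single mouse, at 0 CPM in Qlox 1 and 17 in Qlox 2.

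Myh6, the alpha cardiac myosin heavy chain (chromosome 14, 54941921 to 54966927), was the muscle gene that set Qlox apart. It was 31.2 and 22.5 CPM in Qlox, 6.19, 2.2 and 4.98 in IRlox, 4.2, 2.62, 2.32 and 3.12 in IGFRlox and 3.36, 5.93 and 2.78 in IRIGFRlox (log2 difference 2.81 ± 0.46, adjusted p = 0.0021). QKO shared it at 92.2, 35.3, 34.5, 21.4, 33.6 and 85.8 CPM, with 3.63 in QKO 5. The call was lost without Qlox 1. Myh6 adjoins and resembles Myh7, which was 289 and 363 CPM in Qlox, inside the range of the other colonies. Nppa stayed near 0. Exoc7, a subunit of the exocyst complex used in GLUT4 traffic, named after its values were seen, was 89.9 and 103 CPM against 34.5 to 54.5 (1.08 ± 0.22, adjusted p = 0.031). It was 65.1 to 112 in QKO other than QKO 5, at 34.9.

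Other genes higher in Qlox were Arhgef37, at 14.4 and 18.1 CPM against 3.85 to 7.85 (adjusted p = 0.0017), Pyroxd2, at 5.58 and 9.86 against 1.53 to 3.15 (adjusted p = 0.0025), Ssc4d, at 4.92 and 7.11 against 0.275 to 2.1 (adjusted p = 0.0063), and Prkd1, protein kinase D1, at 10.5 and 8.25 against 1.5 to 4.59 (adjusted p = 0.011). Filip1l was lower, at 55.5 and 53 CPM against 93.9 to 175 (log2 difference -1.26 ± 0.27, adjusted p = 0.034). It was 32.8 to 80.1 in QKO, but MIGIRKO, at 43.6 to 74.5, lay as low. Nedd1, a centrosome protein, was 21.3 and 16 CPM against 27.5 to 37.2 (adjusted p = 0.044), and Med31, a Mediator subunit, 1.31 to 2.52 against 3.75 to 8.8 (adjusted p = 0.034). Hmgb1-ps8, a pseudogene, had 0 counts in both Qlox libraries and 3.33 CPM in the others pooled, at least 8.22-fold higher than a floor of 3 counts over the group. The Qlox count was 37 without MIRKO 4 and MIGIRKO 6 and 50 in the fit to the 12 floxed libraries, and fell to 11 without Qlox 1 and 5 without Qlox 2. With the library runs as a block, of which Qlox came only from runs 4 and 5, 22 genes were called, but only 13 of them were among these 22. The block ended the calls for Pyroxd2 (adjusted p = 0.06), Filip1l (0.097), Prkd1 (0.1), Med31 (0.14) and Gm6368 (0.15), among others.

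**Figure D4:**
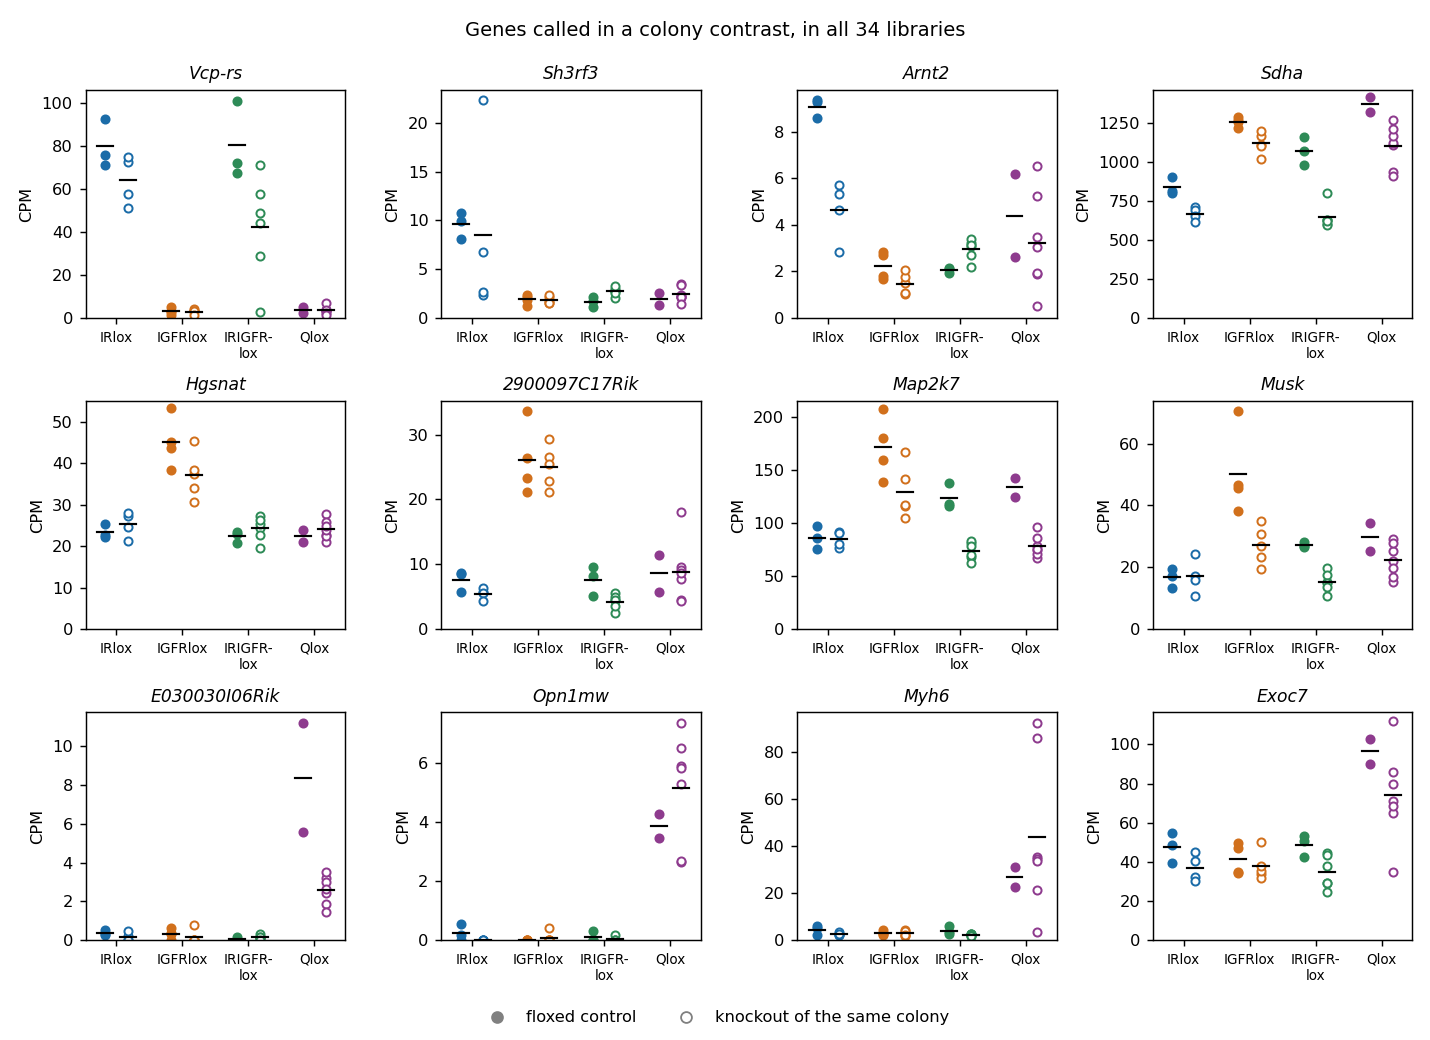
Level in CPM of 12 genes called between colonies, filled points the floxed libraries and open points the knockouts of the same colony, black lines the group means. Vcp-rs is high in the IRlox and IRIGFRlox colonies, and Myh6 and Exoc7 in the Qlox colony apart from QKO 5.

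Called genes were next placed against the floxed loci. Within 20 Mb of the 5 floxed genes 5 of 598 tested genes (0.836%) were called in the any-difference test, beside 31 of 13048 (0.238%) elsewhere. Near the floxed genes it was 2 of 600 (0.333%) without IRlox 2, beside 0.109% over all genes, and 3 of 594 (0.505%) without IRlox 3, beside 0.191%. The 5 genes were Map2k7 and Snapc2 near Insr, Arnt2 near Igf1r, Sh3rf3 near Foxo3 and Vcp-rs near Foxo4. Foxo3 and Foxo4 are floxed in the Qlox colony only, but Sh3rf3 stood out in IRlox, and Vcp-rs was low in both Qlox and IGFRlox. Arnt2 was highest in IRlox, whose label names no floxed Igf1r. In the IGFRlox contrast 4 of 94 genes near Insr (4.26%) were called, all higher, beside the 0.147% called over all genes. They are Cd209f, Map2k7, Tgfbr3l and Snapc2, which lie at 4102787 to 4253080 on chromosome 8, and they were 4 of the 6 tested genes in that stretch, whose ends are set by the called genes. Cd209f, a C-type lectin, was 4.16 to 6.42 CPM against 0.984 to 3.21 (adjusted p = 0.041). Map2k7 was 139, 208, 181 and 160 CPM against 75.4 to 143 (0.61 ± 0.12, adjusted p = 0.022). Tgfbr3l, named after its values were seen, was 1.96 to 6.42 CPM against 0 to 0.856 (adjusted p = 0.023), and Snapc2, a subunit of the snRNA activating complex, was 15.3, 11.7, 13.6 and 12.7 against 3.28 to 8.34 (1.21 ± 0.21, adjusted p = 0.0056). The call for Snapc2 was lost without Qlox 1, that for Map2k7 without Qlox 1, IGFRlox 2 or IGFRlox 3, and that for Tgfbr3l without Qlox 1 or IGFRlox 2. The call for Cd209f held in 8 of 21 alternatives. With the library runs as a block Cd209f (adjusted p = 0.13) and Tgfbr3l (0.073) were no longer called.

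Within 2 Mb of Insr 26 genes were tested, Insr included, 12 with a positive IGFRlox difference, and 22 were not called. The log2 differences of those 22 ran from -1.38 (Fcor) to 0.72 (Stxbp2), some as large as that of Map2k7. Timm44 and then Elavl1, the next tested genes beyond Snapc2, had differences of -0.1 and 0.04 (adjusted p = 0.9 and 0.97). Genes of this stretch other than Insr and those called in IGFRlox are named after their values were seen. In the knockouts, MIGF1RKO was compared with the mean of the other 3, which all lack Insr in muscle. There 14 of the 26 were positive and 6 were called higher, beside 9.45% of all genes: Insr itself (2.07), Map2k7 (0.71), Tgfbr3l (2.8), Snapc2 (0.96), Trappc5 (0.47) and Timm44 (0.35, against -0.10 and no call in IGFRlox). Another 3 were called lower, beside 6.5% of all genes: Fcor (-2.58), Cers4 (-0.76) and Pnpla6 (-0.54). Cd209f had a difference of 0.71 (adjusted p = 0.08). The floxed and knockout contrasts use different mice of the same colony.

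**Figure D5:**
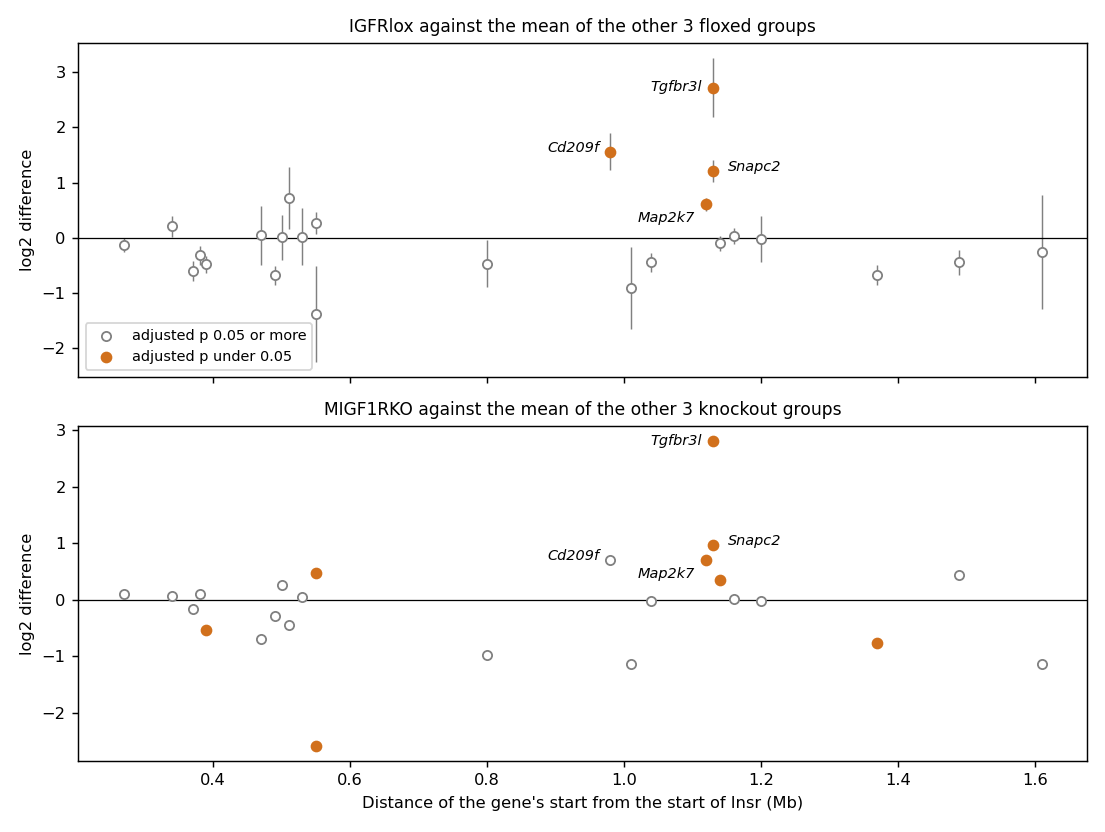
Log2 difference against distance from the start of Insr for the 25 tested neighbours within 2 Mb, IGFRlox against the other floxed colonies above (bars SE) and MIGF1RKO against the other knockouts below, filled where the adjusted p is under 0.05. The 4 called genes of the upper panel lie close together about 1 Mb away, among uncalled neighbours between -1.38 and 0.72.

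Another stretch held 5 called genes out of 62 tested (8.06%), from 48279760 to 63544772 on chromosome 4: Invs, Fsd1l, Musk, Alad and Atp6v1g1. Its ends are set by the called genes, and 0.432% of all genes were called in any of the 5 tests. All but Musk are named after their values were seen. Alad, an enzyme of haem synthesis, was 48.2, 45.4 and 58.6 CPM in IRlox, 27.6, 17.4, 13.2 and 22 in IGFRlox, 40, 51.3 and 28.7 in IRIGFRlox and 16.1 and 19.9 in Qlox. Atp6v1g1, a proton pump subunit, was 158, 165 and 165 CPM in IRlox, 104, 92.7, 96.8 and 102 in IGFRlox, 145, 187 and 169 in IRIGFRlox and 130 and 117 in Qlox. Both were higher in IRlox and IRIGFRlox than in IGFRlox and Qlox, the split seen for Vcp-rs among the floxed libraries, narrowly so for Alad. Invs, which encodes inversin, was 10.8, 12.1 and 7.31, then 3.6, 4.28, 5.71 and 5.2, then 9.46, 10.1 and 11.5, and 4.59 and 5.73 CPM in the same order, with the same split. The calls for these 3 genes, in the any-difference test, were lost with the library runs as a block (adjusted p = 0.18, 0.15 and 0.076 in that order). Knockout Alad was 18.1 to 38.9 CPM in MIRKO and 12.7 to 38.4 in MIGIRKO. It was 12.9 to 27.9 in MIGF1RKO and 15.8 to 29.7 in QKO, so the split was not repeated. Atp6v1g1 overlapped too, at 76.6 to 135 in MIGIRKO and 78.5 to 132 in QKO. Invs was 7.78 to 15.4 in MIRKO and MIGIRKO, 2.81 to 6.16 in MIGF1RKO and 3.74 to 9.45 in QKO. Fsd1l did not follow the split. It was called higher in IGFRlox (log2 difference 0.83 ± 0.18, adjusted p = 0.041), at 30.6, 71.3, 48.9 and 53.4 CPM, overlapping the 19.8 to 41.3 of the other colonies. Musk, described above, was highest in IGFRlox.

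Knockout littermates, measured in other mice of the same colony, offer a look at whether a difference goes with the colony. For the IGFRlox genes 20 of 20 had the same sign when MIGF1RKO was set against the other knockouts, and 14 were called there, where 15.9% of all genes were called and 56.7% had the same sign in both. For Qlox and QKO it was 21 of 22 and 16 (17.2% and 54.4% over all genes). For IRlox and MIRKO it was 12 of 14 and 4 (0.117% and 59.2%), and for IRIGFRlox and MIGIRKO 1 of 1 and 1 (27.2% and 45.5%). Without MIRKO 4 and MIGIRKO 6 these stood at 20 and 14, 21 and 16, 11 and 4, and 1 and 1. The knockout contrasts also hold the effects of the deletions.

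Gene lists showed smaller shifts, in most of which no member was called, beside a median near 0 over all genes. Unscaled library totals shifted all genes by at most 0.08 on the log2 scale, less than the medians named here. Of 36 complex I genes 28 were positive in IRlox (median log2 difference 0.26) and 32 in IRIGFRlox (0.24), 9 in IGFRlox (-0.11) and 4 in Qlox (-0.42), with 0 called. Ndufc2, a complex I subunit, was 32.5 and 33.9 CPM in Qlox against 49.3 to 142 elsewhere (adjusted p = 0.091 in the Qlox contrast). The 77 tested ribosomal protein genes had medians of 0.36, 0.28, -0.21 and -0.37 in the same order, and 0 were called in the any-difference test. The complex I share of counts was 0.549% to 0.6% in IRlox, 0.492% to 0.636% in IRIGFRlox and 0.419% to 0.432% in Qlox. Inside IGFRlox it was 0.613%, 0.416%, 0.407% and 0.541%, spanning IRlox and Qlox, and its low libraries, IGFRlox 2 and 3, came from runs 4 and 5 as Qlox did. The ribosomal protein share inside IGFRlox was 0.494%, 0.354%, 0.349% and 0.504%, again low in those libraries. The part of the runs in these list differences was not tested.

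The fasting and glucocorticoid list went the opposite way, with a median of 0.60 in Qlox (16 of 18 positive) and -0.38 in IRlox (2 positive). By share of counts the list took 0.381% in Qlox 1 and 0.619% in Qlox 2. It took 0.293% to 0.333% in IRlox, 0.313% to 0.371% in IGFRlox and 0.295% to 0.465% in IRIGFRlox, so only Qlox 2 lay above all other colonies. Tsc22d3, a glucocorticoid-induced leucine zipper, was 196, 120 and 240 CPM in IRlox, 332, 351, 488 and 421 in IGFRlox, 263, 266 and 343 in IRIGFRlox and 502 and 553 in Qlox (adjusted p = 0.064). IRlox lay below and Qlox above all other libraries. Trim63, the muscle ubiquitin ligase MuRF1, was 324 to 398 CPM in IRlox and 574 and 1050 in Qlox (adjusted p = 0.52), and Pdk4, which blocks glucose oxidation, was 1090 and 2180 in Qlox within an overall range of 532 to 2180. None of the 18 was called. Irs1, an insulin receptor substrate, was 53.2 and 52.3 CPM in Qlox against 67 to 137 elsewhere (adjusted p = 0.08 in the Qlox contrast).

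Cell type lists shifted as well, again with no member called among the adipocyte, fibroblast and Schwann genes. The median adipocyte difference was 0.94 in IRlox, with 7 of 9 genes positive, and -0.84 in IRIGFRlox. By share of counts IRlox did not stand out for the adipocyte list, at 0.101% to 0.134% beside 0.115% to 0.132% in Qlox. Adipoq, the adipokine adiponectin, was 22.1, 30.3 and 25.1 CPM in IRlox, 15.9, 8.56, 20.7 and 11.4 in IGFRlox, 8.85, 8.42 and 8.13 in IRIGFRlox and 13.1 and 14 in Qlox (adjusted p = 0.31). IRlox did not overlap the rest. Fibroblast markers took 0.611% to 0.721% in IRlox against 0.228% to 0.584% elsewhere, and endothelial markers 0.0648% to 0.0708% against 0.0518% to 0.0609%. The fibroblast and endothelial shares moved with the IRlox genes above, and their part in those differences was not tested. In IRIGFRlox 0 of 8 Schwann cell genes were positive (median -1.01), while in Qlox 8 of 8 were (0.73), and each contrast includes the other colony. Tendon markers had a median of 0.68 in IRlox (7 of 7 positive) and -0.52 in Qlox (0 of 7), with 0 called. Myod1, the myogenic regulator, was 24.3, 17.8 and 26.5 CPM in IRIGFRlox, 3.28 and 6.65 in Qlox and 8.97 to 13 in IRlox and IGFRlox (adjusted p = 0.18). The interferon-induced GTPase gene Iigp1 was 50.6, 116 and 46.5 CPM in IRlox, 86.1, 26.6 and 48.1 in IRIGFRlox, 12.3, 11.2, 6.96 and 13.3 in IGFRlox and 6.89 and 6.88 in Qlox (adjusted p = 0.064).

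A fit to the 12 floxed libraries alone, with 12293 genes tested, called members of these lists that the fit to 34 did not. It called 6 of 9 adipocyte genes higher in IRlox, beside 0.618% of all genes, among them Adipoq (log2 difference 1.14 ± 0.2, adjusted p = 0.011) and Cfd (1.74 ± 0.26, adjusted p = 0.011), where the fit to all 34 libraries gave adjusted p = 0.18 and 0.091. It called Foxo1 lower in IRlox (-1.45 ± 0.28, adjusted p = 0.028) and higher in Qlox (1.33 ± 0.26, adjusted p rounding to 0.05), where the fit to all 34 gave 0.083 and 0.15. Tsc22d3 was likewise lower in IRlox (adjusted p = 0.011) and higher in Qlox (adjusted p = 0.037), and Myod1 higher in IRIGFRlox (adjusted p = 0.0017) and lower in Qlox (adjusted p = 0.019). These calls rest on the choice of libraries in the fit.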

How the data were processed

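RNA-seq counts of 34 mouse muscle libraries were used, 12 of them floxed controls. The deposited table gives raw counts per Ensembl gene and is not normalized. The authors aligned reads with STAR to GRCm38.p4 and counted them with featureCounts, per the submitters' processing notes. Versions, annotation release and strand setting are not given in the sources used here, so overlapping genes, antisense genes and near-identical copies may share counts. Of 46071 gene IDs, 45229 matched a GENCODE M21 symbol. All columns were used, and groups came from the labels.

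The model was fitted in edgeR 4.0.16 under R 4.3.3 (quasi-likelihood test, robust, TMM scaling, filterByExpr, 1 mean per group of 8), which tested 13646 genes. CPM use TMM-scaled totals, and TPM use the summed exon length of GENCODE M21. SE is the log2 difference over the square root of F. Fitted differences of genes with few counts depend on the prior count, and for them CPM are given. Gene lists (35, with 519 entries) and members were chosen with earlier results of these data known. Named genes were the floxed genes, the genes with the most counts or TPM, up to 8 called genes per direction and colony with an average log2 CPM of at least 1, list members by p and TPM, genes near floxed loci and the steadiest and most variable abundant genes. Of the 59 called genes 37 fell under that rule, and 22 did not and are marked where named. Some results are not reported here. Depth limits precision, and counts near 0 carry counting error as well. Alternatives were DESeq2 1.42.0, limma 3.58.1 (voom), other scalings and filters, other sets of libraries, the library runs as a block and each floxed library left out. The fit was tested on simulated data with changes put into a single colony. There the any-difference test recovered 28.4% (Qlox) to 58.2% (IRlox) of 2-fold changes. Figures used Python 3.11.15 with matplotlib 3.10.9.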

Additional observations from a re-analysis of the deposited data

Results flagged for a closer look

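In the 4 IGFRlox libraries, the only group large enough for the check, 15 of 233 values examined (6.44%) had 1 library far from the other 3 by Dixon's criterion, which chance meets in about 1 in 20 groups. They fell in each of the 4 libraries, and no cause was tested.

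IGFRlox 3 was high for Foxo1 (124 CPM, the others 69.7 to 74) and Nctc1 (193, others 157 to 159). It was low for Tnni2, fast troponin I (2990, others 10400 to 11400), Cox6a2, the muscle form of a cytochrome oxidase subunit (261, others 432 to 459), and the share of complexes II to V (1.14%, others 1.37% to 1.42%). IGFRlox 2 was low for Acta1 (13500 CPM, others 26500 to 28300), Hspb6, a small heat shock protein (351, others 539 to 572), and Myod1 (9.99, others 12.6 to 13). It was high for Pax7, the satellite cell factor (7.37, others 4.46 to 4.8), and Gm15564 (674, others 123 to 196). IGFRlox 1 was high for Prx, a myelin protein gene (25.8, others 9.29 to 10.6), and for the Schwann cell share (0.0577%, others 0.0287% to 0.0331%). IGFRlox 4 was high for the liver genes Alb (69.8, others 6.79 to 8.99) and Apoa1 (7.48, others 0 to 1.2), and with them for the share of cardiac and other tissue markers (0.00731%, others 0.000843% to 0.00129%).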

How the results depend on the processing

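No paired analysis was possible because replicate numbers follow accession order and the labels tie no mice together, so the runs of consecutive library numbers were fitted as a block instead. The counts of called genes (36 for any difference, 14 for IRlox, 20 for IGFRlox, 1 for IRIGFRlox, 22 for Qlox) depended on the test and on the libraries fitted, and the cause was not tested. DESeq2 called 163, 134, 40 and 2 in the first 4. Limma-voom called 18 for any difference, 12 for IGFRlox and 0 for IRIGFRlox, where 887 genes had an unadjusted p under 0.05. The fit to the 12 floxed libraries called 119 for any difference, 127 for IRlox, 7 for IRIGFRlox and 50 for Qlox. The fit without MIRKO 4 and MIGIRKO 6 called 78, 47, 39, 3 and 37. With the library runs as a block 8 were called for IRlox and 12 for IGFRlox (4 of 14, 10 of 20 and, for Qlox, 13 of 22 original calls kept), and with no filter on low counts 7 for IRlox. Leaving out 1 floxed library gave 15 to 42 for any difference, 2 to 30 for IRlox, 2 to 93 for IGFRlox, 1 to 3 for IRIGFRlox and 5 to 24 for Qlox. The percent called near the floxed loci was 2.51 with DESeq2 and 2.65 with the 12 floxed libraries, and 0.333 to 0.843 with 1 library left out, against 0.836. The 20 most counted genes took 37% as TPM in place of 29.4%, and 29.2% to 29.8% without 1 colony. Of 35 list shares, 24 moved as TPM by at least the SD of their share of counts. Gm6368 turned to -3.03 in the Qlox contrast without Qlox replicate 2 and was 6.35 without Qlox replicate 1. Over the called genes and alternatives, 520 of 754 any-difference calls were kept, 196 of 294 for IRlox, 288 of 416 for IGFRlox, 20 of 21 for IRIGFRlox and 357 of 461 for Qlox.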

Other observations

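In the fit to the 12 floxed libraries alone, single members of other lists were called for IRlox that the fit to all 34 libraries did not call. Casq2, the slow and cardiac calsequestrin, was higher by 1.31 ± 0.25 on the log2 scale (adjusted p = 0.028, and 0.062 in the fit to all 34). So were Igf1, the ligand of the IGF-1 receptor (0.81 ± 0.17, adjusted p = 0.032, and 0.083), B2m, the light chain of class I antigen presentation (0.88 ± 0.18, adjusted p = 0.028, and 0.11), and Cldn5, an endothelial junction protein (1.19 ± 0.25, adjusted p = 0.03, and 0.087).

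Clock genes, which cycle through the day, and immediate early genes, which rise soon after a stimulus, differed between mice inside colonies. Arntl, a core clock activator, was 47.5, 17.8 and 53.5 CPM in IRIGFRlox and 4.96 to 21 in the other 9 libraries, while Dbp, a clock output gene, was 23.4, 103 and 27.2 in IRIGFRlox and 67.4 to 180 elsewhere. IRIGFRlox 1 and 3 were thus highest for Arntl and lowest for Dbp, with IRIGFRlox 2 among the other colonies, and neither gene was called (adjusted p = 0.19 and 0.48). Fos was 92.6 CPM in IRlox 1 and 2.08 to 50.7 in the other 11, and Egr1 63 in IRlox 1 and 5.13 to 40.5 elsewhere.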
